A study of Capsicum annuum with 2 samples.

Results

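The unigene comp62432_c0_seq1, which the study annotated as an ADP/ATP translocator, was abundant in anthers of the restorer line 121C and nearly absent from those of the cytoplasmic male sterile (CMS) line 121A of chili pepper. It was chosen by its name with earlier results of these data known, so its extreme values are a description and not an independent finding. It is 1 of the 11387 unigenes, that is assembled transcripts, listed in the deposited table. The library of 121A held 1 read of it, or 0.0536 RPKM, and the library of 121C held 4247 reads, or 256 RPKM. RPKM corrects reads for unigene length and library depth. Its length, recovered from the reads and RPKM, was 1737 bp.

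Anther RNA of line 121A, which carries a sterile cytoplasm in the nuclear background of an inbred line, was set against anther RNA of line 121C, which has the same cytoplasmic source and is thought to differ in its nucleus by the dominant restorer gene only, which was brought in from "big gold bullion" by backcrossing. Buds of several plants per line were sorted by phase, and RNA of all phases was mixed in equal parts into 1 library per line. There is therefore no replicate check, plants and bud phases cannot be told apart within a library, and any test compares these libraries and not the lines.

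An ADP/ATP translocator, also called adenine nucleotide translocator or ADP/ATP carrier, is a protein of the inner mitochondrial membrane that carries ATP out of the mitochondrial matrix in exchange for ADP from the cytosol. The ATP synthase makes ATP in the matrix, so the carrier links respiration to the ATP used in the rest of the cell. Microspores and the tapetum, the cell layer that feeds them, are rich in mitochondria and have a high demand for ATP. CMS is a defect in pollen formation that is inherited through the mitochondria and can be corrected by a nuclear restorer gene. A shortage of ATP in sterile anthers is among the explanations that have been discussed for CMS, and no ATP was measured in these data.

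The study measured this unigene also by real-time RT-PCR with actin as the internal control, and those measurements were not used here. The primer pair is shown because it is the sequence information used here that identifies the transcript. The primers are written from 5′ to 3′, and capitals mark the last 5 bases at the 3′ end, where extension starts.
comp62432_c0_seq1 forward primer: caaaagggggaggggaACGAC
comp62432_c0_seq1 reverse primer: gcgacccagtgaggacAACAG

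Each primer had 21 bases and a GC content of 61.9%. The other 38 primers of the study, for 19 unigenes, had a GC content of 28.6% to 60.0% with a median of 45.0%, so both primers of comp62432_c0_seq1 were richer in G and C than every other primer. The forward primer held a run of 5 identical bases and the reverse primer a run of 3. The place of the primers in the unigene and in the genome was not determined here, since neither the unigene sequence nor a genome was used.

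In the library of 121A, the single read of comp62432_c0_seq1 corresponded to 0.0931 reads per 1000000 counted reads (95% exact Poisson interval 0.00236 to 0.519), and in the library of 121C the 4247 reads corresponded to 445 reads per 1000000 counted reads (431 to 458). The intervals did not overlap. Little follows from this, since the list holds only unigenes past the authors' threshold. The intervals cover counting error only, and PCR copies of a molecule are not independent of each other. If the unigene had taken the same share of both libraries, 4777 reads would have been counted in 121A. Over the length of the unigene this gave 0.0576 reads per 100 bp in 121A and 245 reads per 100 bp in 121C. The unigene was thus covered many times over in 121C, and 121A gave too few reads to cover it once.

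The log2 ratio of 121A over 121C was -12.22, with a 95% interval of -17.53 to -9.74 that was converted from the exact Clopper-Pearson interval of the 121A share of the reads. The limit nearest to no difference stands for an 857-fold higher level in 121C. The interval is wide because the value in 121A rests on 1 read. The unigene passed the MARS test of DEGseq, which the study used, with the thresholds of the study, 0.001 for the FDR and 1 for the size of the log2 ratio. Every listed unigene passed it, 62.0% of them with the higher level in 121C and 38.0% with the higher level in 121A, so passing the test does not set this unigene apart. It also passed edgeR's exact test when biological variation between the pooled libraries was assumed at a coefficient of 0.4. The list holds only unigenes past the authors' threshold, and how many of the others passed this test is not given. Whether passing it sets the unigene apart is therefore not known.

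**Figure D1:**
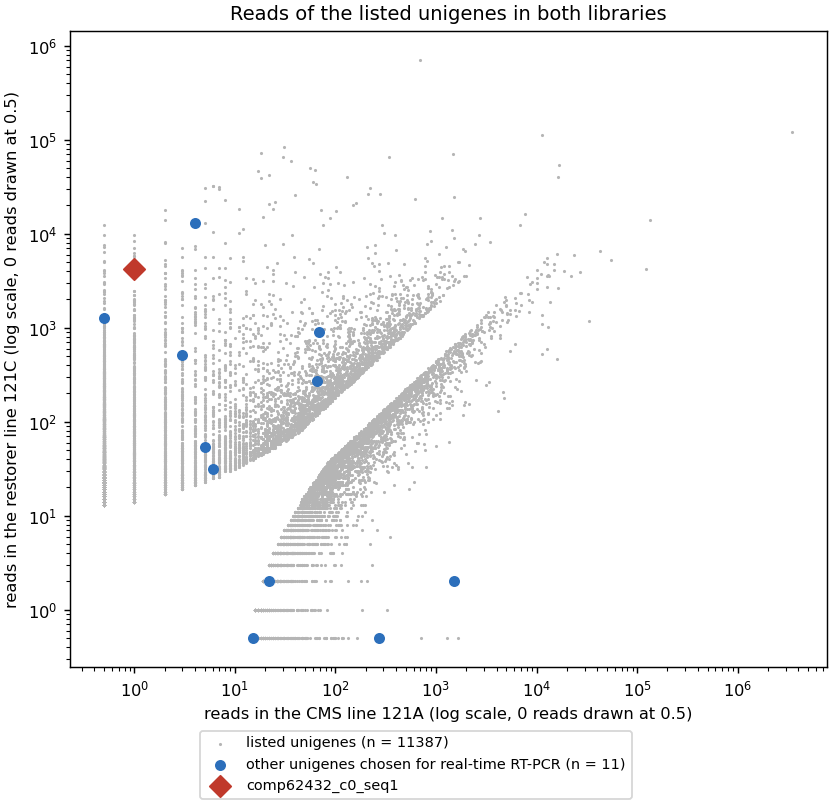
Reads in the CMS line 121A (horizontal axis) and in the restorer line 121C (vertical axis), both on log scales with 0 reads drawn at 0.5, of the 11387 listed unigenes (grey), the 11 other unigenes chosen for real-time RT-PCR (blue) and comp62432_c0_seq1 (red diamond). The diamond lies at 1 read in 121A and 4247 reads in 121C, near the upper end of the column of unigenes with 1 read in 121A, and the empty diagonal band is the range of ratios that the list does not hold.

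By RPKM in 121A, comp62432_c0_seq1 ranked 8742 of 11387, and by RPKM in 121C it ranked 184, within the highest 1.62% of the list. By reads in 121C it ranked 145. In 121A, 2607 listed unigenes had 0 reads and 578 had 1 read. Of the 2644 unigenes with a lower RPKM in 121A, 37 had any read there. Among the 578 unigenes with 1 read in 121A, the order by RPKM follows length alone, so at most 37 of them were longer. Over the whole list, 15.7% of the unigenes were longer than comp62432_c0_seq1. It thus shared the lowest read count of the unigenes detected in 121A and stood among the most abundant ones in 121C. The median of the 7061 unigenes higher in 121C was 77 reads and 9.75 RPKM in that library, and their median log2 ratio was -4.87.

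Among the 578 unigenes with 1 read in 121A, 10 had more reads in 121C than comp62432_c0_seq1. Over the whole list, 36 unigenes had a lower log2 ratio, and 18 of these had 0 reads in 121A, so that their ratio rests on 0 reads being taken as 0.5 read. The number was 87 with a pseudocount of 1 RPKM in both lines and 158 with 0.01 RPKM, so its place in this order is loose. The 4 unigenes just before it were comp61886_c0_seq1 (-12.30), comp38613_c0_seq1 (-12.29), comp26892_c0_seq1 (-12.26) and comp38589_c0_seq1 (-12.24). The 4 just after it were comp62428_c0_seq1 (-12.19), comp38591_c0_seq1 (-12.16), comp61841_c1_seq1 (-12.12) and comp26913_c0_seq1 (-12.11). The intervals of all 9 overlap, and their levels differed widely, since comp61841_c1_seq1 had 18 reads in 121A and 71402 in 121C, whereas comp62428_c0_seq1 had 0 reads in 121A and 2084 in 121C. The annotation of these 8 unigenes was not used here.

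**Figure D2:**
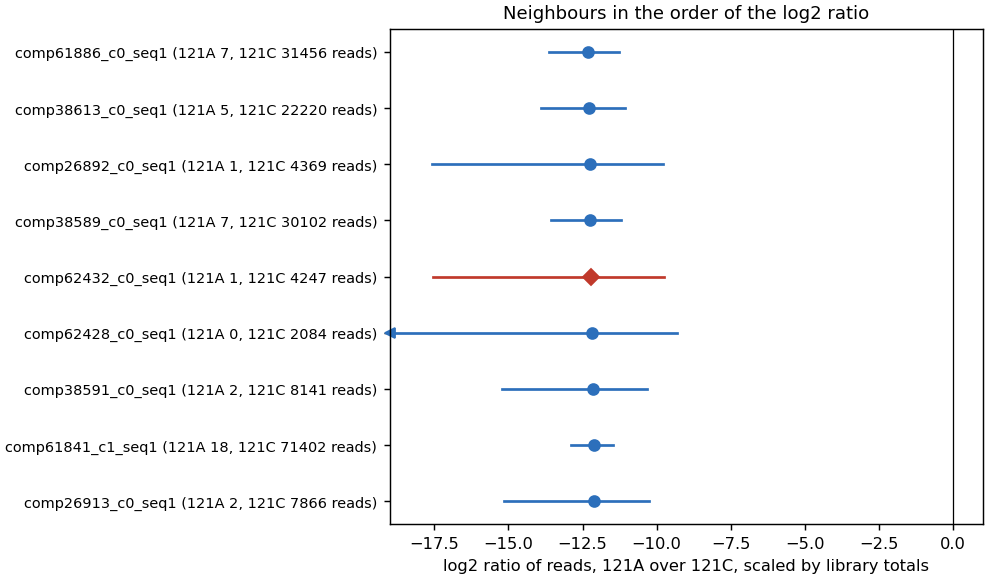
Log2 ratio of reads, 121A over 121C (points), with 95% Clopper-Pearson intervals (lines, an arrow where there is no limit) of comp62432_c0_seq1 (red diamond) and of the 4 listed unigenes on each side of it in the order of the ratio, with the reads of each line. All points lie between -12.30 and -12.11, and the interval of comp62432_c0_seq1 from -17.53 to -9.74 covers all of them.

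The library of 121A separated unigenes that were alike in 121C. Within 1.5-fold of the RPKM of comp62432_c0_seq1 in 121C there were 185 other listed unigenes, of which 20 were higher in 121A. Of the 185, 52 had at most 3 reads in 121A, 33 had 4 to 30 reads, 22 had 31 to 300 reads and 78 had more than 300 reads. The median was 119 reads (quartiles 3 and 832), so comp62432_c0_seq1 with 1 read lay below the lower quartile. Unigenes that changed less than 2-fold are not in the list, so values in 121A near an equal share are missing from this range. The next unigenes in the order of 121C RPKM show the same spread. Directly above it, comp62609_c0_seq1 had 663 reads in 121A and 2177 in 121C. Directly below it, comp28045_c0_seq1 had 5 reads in 121A and 1757 in 121C. Further above were comp26880_c0_seq1, comp51887_c0_seq1 and comp26996_c0_seq1 with 0, 974 and 4 reads in 121A, and further below were comp60379_c1_seq1, comp29092_c0_seq1 and comp54349_c0_seq1 with 117, 540 and 2118 reads in 121A. All 8 had 251 to 262 RPKM in 121C.

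**Figure D3:**
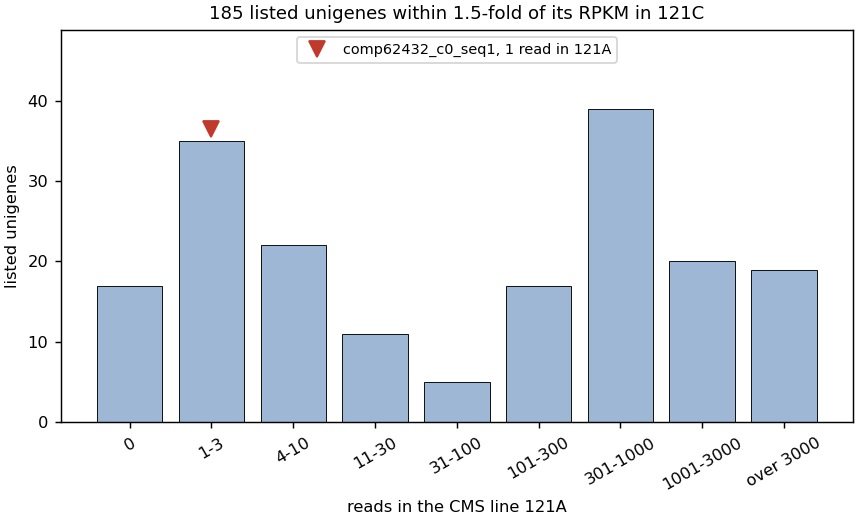
Number of listed unigenes (vertical axis) by their reads in the CMS line 121A (horizontal axis, classes of unequal width) among the 185 whose RPKM in 121C was within 1.5-fold of that of comp62432_c0_seq1, whose class is marked by the triangle. The 2 bars on the left, up to 3 reads, hold 52 unigenes, the 3 bars on the right, over 300 reads, hold 78, and the lowest bar, with 5, lies between them.

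With at most 3 reads in 121A and at least its RPKM in 121C, 50 other unigenes had the same pattern, or 26 when the level in 121C was taken as reads. Together with comp62432_c0_seq1 these 51 unigenes took 55 reads in 121A and 250625 reads in 121C, or 2.62% of the library of 121C. Of the 184 unigenes with at least its RPKM in 121C, 27.7% had at most 3 reads in 121A and 15 were higher in 121A. Of the 145 unigenes with at least its reads in 121C, 18.6% had at most 3 reads in 121A. Over the whole list of 11387 unigenes, 2607 had 0 reads and 578 had 1 read in 121A. The shares above, at up to 3 reads, do not exceed the share of the list at up to 1 read. The list also includes unigenes with far fewer reads in 121C, so it is not a like set. A high level in 121C and a near absence in 121A was shared with many listed unigenes, 50 of them by RPKM. Because each library holds the RNA of whole anthers, fewer cells of a type and less RNA per cell cannot be told apart for any of them.

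Among the unigenes with at most 3 reads in 121A, the 6 nearest to comp62432_c0_seq1 in log2 RPKM of 121C lay within 0.07 of it on that scale. The closest, comp26880_c0_seq1, is a short unigene of 289 bp with 0 reads in 121A and 724 in 121C, or 262 RPKM. The closest of similar length was comp38635_c1_seq1 of 1470 bp, with 1 read in 121A and 3480 reads or 248 RPKM in 121C. Its log2 ratio of -11.93 (interval -17.24 to -9.46) differed from that of comp62432_c0_seq1 by much less than the counting error. The others were comp26961_c0_seq1, comp38563_c1_seq1, comp62811_c0_seq1 and comp47931_c1_seq1, with 0 to 2 reads in 121A and 555 to 4797 reads in 121C. The likeness rests on 1 value per line, and the annotation of these unigenes was not used here.

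No other unigene of the Trinity component comp62432, the group of transcripts that the assembler joined, was in the list (0 others). This was the usual case, as 9114 of the 10127 components in the list (90.0%) had 1 listed unigene. ADP/ATP carriers form a small family in plants. Of the 1999 annotations of the study that were used here, the first by unigene name, 1 matched the search for ADP/ATP or carrier proteins, and it was an acyl carrier protein. Other members of the family were thus not analysed here. How the authors assigned reads that match several similar unigenes is not given in the sources used here, so it is uncertain how reads of near-identical carrier genes were divided between unigenes.

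The study had chosen 12 unigenes of known function for real-time RT-PCR with the sequencing results at hand, so their directions are not independent evidence. Of these, 4 were higher in 121A and 8, comp62432_c0_seq1 among them, were higher in 121C, against 38.0% and 62.0% of the list. By RPKM in 121C it ranked 2 of 12, after the pectin methylesterase unigene comp62048_c0_seq1. Pectin methylesterases remodel the pectin of cell walls and are abundant in growing pollen tubes. Its log2 ratio was the lowest of the 12.

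The difference in log2 ratio between comp62432_c0_seq1 and each of the other 11 unigenes was given an exact 95% interval from the conditional odds ratio of their reads. For 9 of the 11 the interval lay below 0. They include the 4 unigenes that were higher in 121A, which already differ from comp62432_c0_seq1 in direction. The nearest of the 9 was the peroxidase unigene comp71609_c0_seq1, for which the ratio of comp62432_c0_seq1 minus its own was -4.63 (interval -10.34 to -0.98). Peroxidases use hydrogen peroxide to oxidise many substrates. The other 2 could not be separated from it by counting error. The difference was -0.38 (interval -6.00 to 2.96) from comp62048_c0_seq1, with 4 reads in 121A and 13085 in 121C. It was -0.76 (lower limit -7.04, no upper limit) from the F-box and wd40 domain protein unigene comp66553_c0_seq1, with 0 reads in 121A and 1257 in 121C, and F-box proteins choose targets for breakdown by the ubiquitin system. At this depth comp62432_c0_seq1 could not be ordered against these 2, and their order to each other was not tested.

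**Figure D4:**
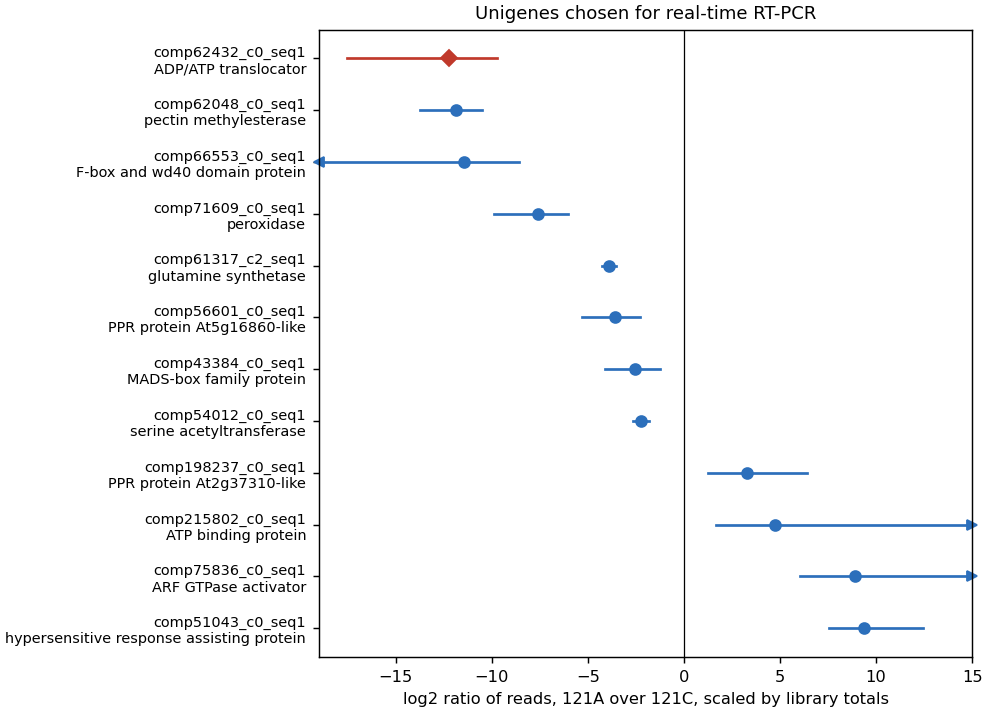
Log2 ratio of reads, 121A over 121C (points), with 95% Clopper-Pearson intervals (lines, an arrow where there is no limit) of the 12 unigenes of known function chosen for real-time RT-PCR, sorted by the ratio, with comp62432_c0_seq1 as a red diamond. The interval of comp62432_c0_seq1, -17.53 to -9.74, overlaps those of the pectin methylesterase, F-box and peroxidase unigenes, the last by little, and the unigenes higher in 121A lie to the right of 0.

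The same choice held comp215802_c0_seq1, annotated as a putative ATP binding protein, a broad class of proteins that bind ATP as a substrate or cofactor. It went in the other direction from the translocator, with 15 reads or 2.38 RPKM in 121A and 0 reads in 121C. A value of 0.5 read in 121C gave a log2 ratio of 4.74, and the lower limit of the interval was 1.67. The difference in log2 ratio of comp62432_c0_seq1 minus comp215802_c0_seq1 had an upper limit of -12.28 and no lower limit.

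Among the 1999 annotations, 19 named a mitochondrial protein or a subunit of the respiratory chain or of an ATP synthase, and 9 of these had a land plant as the best match. None of the 9 was in the list (0 of 9), while 317 of the 1999 annotated unigenes (15.9%) were listed. With so few unigenes the absence says little. They included an iron sulfur subunit of succinate dehydrogenase, which feeds electrons into the respiratory chain, and alternative oxidase 1b, which passes electrons to oxygen without pumping protons. Of the 10 with a best match outside land plants, 1 was listed. This cytochrome c oxidase subunit III unigene, comp179704_c0_seq1, had 1 read in 121A and 16 in 121C and a log2 ratio of -4.17 (interval -9.56 to -1.48), and its best match was in the honey bee. Thus no land plant unigene of mitochondrial energy supply in the part of the annotation used here had deposited values to set beside the translocator.

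Of 11 unigenes annotated for ATP use or nucleotide transport, 2 were listed, close to the 15.9% of all annotations used. Besides comp215802_c0_seq1, this was the plasma membrane proton ATPase unigene comp101216_c0_seq1, a pump that spends ATP to drive uptake across the membrane, with 1 read in 121A and 51 in 121C (13.5 RPKM). Its log2 ratio was -5.84 (interval -11.17 to -3.30). Of 9 unigenes for carbon supply, 2 were listed and both were higher in 121C, as were 62.0% of the whole list. The pyruvate decarboxylase 2 unigene comp117284_c0_seq1, for the first step from pyruvate to ethanol, had 1 read in 121A and 58 in 121C, and the NADP-dependent malic enzyme unigene comp110700_c0_seq1, which makes pyruvate from malate, had 14 reads in 121A and 70 in 121C. The log2 ratio of comp117284_c0_seq1, was -6.03 (interval -11.36 to -3.49), and that of comp110700_c0_seq1 was -2.49 (interval -3.43 to -1.65). In each of these unigenes the reads in the line with more of them were far fewer than those of comp62432_c0_seq1.

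The labelled tissue could hardly be checked with the annotations used. Of 11 unigenes annotated for pollen, tapetum or cell wall breakdown, 1 was listed, the polygalacturonase unigene comp218988_c0_seq1 with 1 read in 121A and 17 in 121C. Since 15.9% of all annotations used were listed, 1 of 11 is near the background and says little about the tissue. Neither the tapetum-specific zinc finger protein nor the major pollen allergen of that list was in the deposited table. Of 5 unigenes of green tissue, 1 was listed, phosphoribulose kinase comp116156_c0_seq1 of photosynthetic carbon fixation, with 78 reads in 121A and 32 in 121C. Over all 5 annotation lists, 2 of the 7 listed unigenes were higher in 121A and 5 were higher in 121C, against 38.0% and 62.0% of the whole list. Their median log2 ratio was -4.17, against -1.78 over the whole list. This median is the value of comp179704_c0_seq1, whose best match was in the honey bee, so it says little. The part of these 7 unigenes in the value of comp62432_c0_seq1 was not tested.

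Depth and scaling touch the value of comp62432_c0_seq1 little compared with its interval. The libraries held 10744829 counted reads for 121A and 9552875 for 121C, of which the listed unigenes took 56.0% in 121A and 57.3% in 121C. One unigene, comp48143_c0_seq1, took 32.3% of the library of 121A. Totals without the 10 most abundant listed unigenes of each library shifted every log2 ratio by 0.43, and that of comp62432_c0_seq1 became -11.79.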

How the data were processed

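Anther RNA of lines 121A and 121C was sequenced as 1 paired-end library per line. The authors processed raw data with CASAVA, removed low-quality and short reads, used Trinity to assemble both lines together and deposited counts, the whole number of reads per unigene. The aligner and the counting rule are not given in the sources used here. The authors also deposited RPKM values, made from these counts. The authors' own log2 ratio, q-value, significance flag and direction are also in the table and were not used. The table holds 11387 unigenes past the authors' threshold, and others were not analysed here.

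Library totals were recovered as the largest totals that make all unigene lengths whole (largest distance from a whole number 1.1e-05, and the same length from both lines for 8478 of 8478 unigenes). Log2 ratios took 0 reads as 0.5 read. Intervals are exact at the 95% level (scipy 1.17.1). MARS was computed anew from the published formula with Benjamini-Hochberg adjustment over the list, and tests and intervals were tested on simulated data. With 1 library per line there are no residual degrees of freedom for the quasi-likelihood test, and the exact test of edgeR 4.0.16 with assumed coefficients of variation of 0.2 and 0.4 was an alternative, beside an exact binomial test, other scalings, pseudocounts and filters.

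The unigene and the lists were chosen with earlier results of these data known. Named unigenes are comp62432_c0_seq1, the 12 chosen for real-time RT-PCR, the 6 nearest in 121C RPKM among those with at most 3 reads in 121A, the 4 on each side in the order of the ratio and of 121C RPKM, and the listed members of the 5 annotation lists. comp48143_c0_seq1 was named after its values were seen. Only the part of the annotation with 1999 unigenes was used. The window of 1.5-fold was set after the values were seen.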

Additional observations from a re-analysis of the deposited data

How the results depend on the processing

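The log2 ratio of comp62432_c0_seq1 kept its direction and its side of the threshold under 9 of 9 alternatives and ranged from -12.22 to -7.93. This was largely fixed in advance. The exact binomial test and edgeR's exact tests change the call only and leave the ratio at -12.22. With 1 read in 121A against 4247 in 121C, none of the scalings or pseudocounts used could reverse the ratio. It was -7.93 with a pseudocount of 1 RPKM in both lines, -10.64 with fewer than 3 reads in 121A taken as 3, and between -12.13 and -11.79 under the other scalings. TMM scaling over the listed unigenes raised all ratios by 0.30. The number of unigenes with a lower ratio was 36. It was 87 with a pseudocount of 1 RPKM, 158 with 0.01 RPKM, and 0 when 1 RPKM was required in each line, a filter that comp62432_c0_seq1 itself does not pass. The number of other unigenes with its pattern was 50. It was 19 with 0 reads required in 121A and 26 with the level taken as reads. The number of listed unigenes for mitochondrial energy that were higher in 121C was 0, and 1 with best matches outside land plants included. No paired analysis was possible because each line has 1 library. The value in 121A rests on 1 read, and a pooled library gives no measure of the variation among plants, so the depth limits how far the ratio can be stated and not its direction between these libraries.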
